A study of Mus musculus with 6 samples.

Results

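The microRNA family of miR-15a, miR-15b, miR-16, miR-195a, miR-322 and miR-497a was read out in small RNA libraries of melan-alpha, pigmented mouse melanocytes that grow as an immortal line. The family rows were those that carry one of these names with the mouse prefix, with every arm and end variant kept, and they made up 11 of the 1560 rows of the deposited table and 11 of its 506 mouse-named rows. The MITF overexpression group held 3 libraries from cells infected with a lentivirus that carries the mouse Mitf gene, which encodes the transcription factor at the head of the pigment cell program, and the control group held 3 libraries whose genotype label is Mitf_control. Both groups were grown in the same serum-containing medium, and the labels do not say whether the controls received an empty lentivirus. All 6 libraries carry the source label extracellular vesicle, whereas the extraction protocol describes collected and washed cells, so whether vesicles or cells were sequenced was not settled here. The labels do not say whether replicates were separate cultures, so the tests measure only the spread between these libraries, which may be technical.

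A microRNA is cut from a hairpin precursor whose arms, named 5p and 3p, can each yield a mature strand, and bases 2 to 8 of that strand, the seed, pair with messenger RNA targets. The miR-15 family is known for slowing the cell cycle through shared targets such as cyclins. In humans the precursors of miR-15a and miR-16 lie in a region often deleted in chronic lymphocytic leukaemia. MiR-16 is also abundant in blood cells and is commonly measured in serum. MiR-322 is the mouse counterpart of human miR-424.

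The mature 5p sequences are shown because one seed defines the family, and they are from RefSeq on GRCm38.p6 with the seed in capitals. All 11 rows matched a RefSeq mature microRNA by name.
miR-16-5p: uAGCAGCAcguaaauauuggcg
miR-15a-5p: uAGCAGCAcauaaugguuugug
miR-15b-5p: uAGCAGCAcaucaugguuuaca
miR-195a-5p: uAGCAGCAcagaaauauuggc
miR-497a-5p: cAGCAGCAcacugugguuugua
miR-322-5p: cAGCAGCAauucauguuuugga
All 6 share this seed, and beyond it they diverge. Counted from the first base, miR-195a-5p was identical to miR-16-5p at 19 of 21 positions, miR-15a-5p at 16 of 22, miR-15b-5p at 14 of 22, miR-322-5p at 12 of 22 and miR-497a-5p at 11 of 22.

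The opposite arms carry other seeds, which the next lines show for the arms that the results turn on.
miR-322-3p: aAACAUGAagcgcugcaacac
miR-15b-3p: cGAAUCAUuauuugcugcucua
miR-16-2-3p: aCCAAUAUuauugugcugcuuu
The precursor of miR-322 is printed with its 5p and 3p arms in capitals, since its reads came almost wholly from one of them.
Mir322: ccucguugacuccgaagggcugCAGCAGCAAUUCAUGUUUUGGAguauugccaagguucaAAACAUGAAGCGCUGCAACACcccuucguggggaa
It lies on the minus strand at chrX:53054255-53054349, and the 5p arm takes positions 23 to 44 of its 95 bases and the 3p arm positions 61 to 81.

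The members come from 4 loci on GRCm38, which is not the build of the submitters' notes. Mir15a and Mir16-1 lie 80 bases apart in an intron of the long noncoding RNA gene Dleu2 on chromosome 14, with mature bases from 61631894 to 61632096 on the minus strand. Mir15b and Mir16-2 lie 83 bases apart in an intron of Smc4, a condensin subunit gene, on chromosome 3, from 69009775 to 69009981 on the plus strand. Mir497 and Mir195a lie 271 bases apart on chromosome 11, from 70234730 to 70235121, within no annotated host gene. Both Mir16 precursors give the same miR-16-5p, so its reads cannot be assigned to either locus.

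Each library held between 279142 and 475977 tabulated reads, which were 2.55 to 3.20% of its raw reads. Markers of some other sources differed between the groups, and those of others overlapped. Levels are given in CPM, the estimated read count per 1000000 reads on library totals scaled by the TMM method, and rows are called at an adjusted p under 0.05. The melanocyte list of miR-211 and miR-204 summed to 4565 to 5946 CPM with MITF overexpression and 1976 to 2771 CPM in controls, with 3 of 3 tested rows called higher. The blood list, of miR-451a, miR-144, miR-142a and miR-486b, summed to 4546 to 8465 CPM with MITF overexpression against 1613 to 2450 CPM in controls, with 4 of 6 tested rows called higher. The mesenchymal list of miR-143, miR-145a, miR-199a and miR-214 had 3 of 5 tested rows called higher, at sums of 6137 to 7779 CPM against 4426 to 5131 CPM in controls. Most of these sums was miR-143-3p, which was not called, at means of 5907 CPM with MITF overexpression and 4436 CPM in controls. Liver miR-122 had 1 of 1 tested row called higher, at sums of 22730 to 103000 CPM against 8848 to 16380 CPM in controls. MITF overexpression replicate 1 stood apart, with miR-122 at 103000 CPM against 22730 CPM in the lowest library of its group. Its endothelial miR-126a sum was 9080 CPM, where the lowest of its group was 1825 CPM and controls held 2233 to 2409 CPM. Of the tested miR-126a rows, 0 of 2 were called. The keratinocyte sum of miR-200b, miR-203 and miR-205 ran from 43.9 to 174 CPM with MITF overexpression and from 0 to 128 CPM in controls. Of its tested rows, 0 of 2 were called. Beside these counts, 9.98% of all 441 tested rows were called higher. The part of these sources in the results below was not tested. In bulk libraries, fewer cells or vesicles of a type and less RNA in each cannot be told apart.

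In the family, miR-322-3p was lower with MITF overexpression, a call that no fit with 1 library left out kept, and no member was called higher. Of the 11 rows, 8 had enough reads to be tested, and 1 of these was called lower at an adjusted p under 0.05 by edgeR's quasi-likelihood test. Over all 441 tested rows, 5.22% were called lower and 9.98% higher, and 15.2% in either direction, so 1 of 8 stands near the background. The median log2 fold change of the 8 rows was 0.16, beside 0.08 over all tested rows and -0.07 over the 285 mouse-named ones, with 5 rows positive and 3 negative. In 2 of the 8 rows all MITF overexpression libraries lay below all controls, in 0 they lay above all controls, and in the other 6 the groups overlapped. Over all tested rows 17.2% lay apart in the lower direction and 25.2% in the higher, 42.4% in all.

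**Figure D1:**
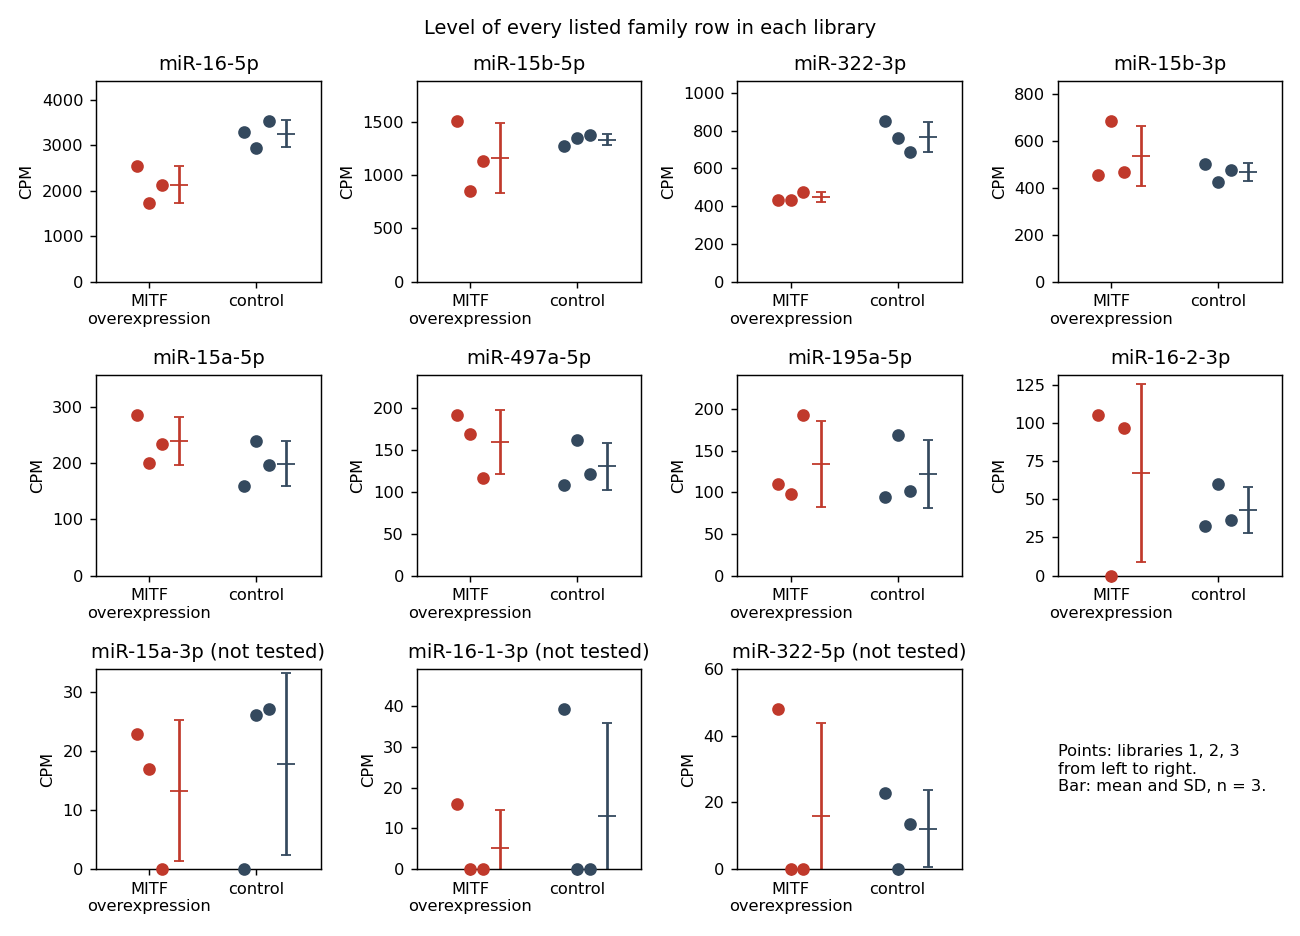
Level of each of the 11 family rows in CPM, reads per 1000000 on TMM-scaled totals, with MITF overexpression left and control right in every panel. Points are libraries and bars are the mean and SD (n = 3), and only miR-16-5p and miR-322-3p show groups that do not overlap.

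MiR-16-5p was the most abundant member and ranked 50 among the mouse-named rows by its mean over all libraries. The MITF overexpression libraries held 1109, 512 and 728.5 reads of it and the controls 1005, 1130 and 1562.5 reads. As CPM, these were 2535, 1737 and 2130 with MITF overexpression and 3286, 2946 and 3528 in controls. Every MITF overexpression library lay below every control, with means of 2134 ± 399 CPM with MITF overexpression and 3253 ± 293 CPM in controls (SD, n = 3 each). The log2 fold change was -0.61 ± 0.21 (SE), with a 95% interval from -1.09 to -0.13. It did not pass by edgeR, with an unadjusted p of 0.0176 and an adjusted p of 0.0770. The adjusted p was 0.0217 by DESeq2 and 0.0474 by edgeR when mouse-named rows alone were fitted, at a log2 fold change of -0.58. Of 16 alternatives only these 2 passed, and the other 14 did not. By edgeR the adjusted p was 0.146 with total-count scaling and 0.150 with no filter on low counts. Without 1 library it ran from 0.0576 to 0.2395 by edgeR. The authors' deposited table lists miR-16-5p at a ratio of 0.672, with an unadjusted p of 0.0273.

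MiR-15b-5p, the partner of miR-16 in Smc4, came next at rank 75. It stood at 1504, 848 and 1134 CPM with MITF overexpression, and at 1275, 1345 and 1377 CPM in controls. The control libraries lay close together, whereas those with MITF overexpression spread to both sides of them, so the groups overlapped. The log2 fold change was -0.20, with a 95% interval from -0.74 to 0.34 and an adjusted p of 0.623 by edgeR, and it was 0.03 without MITF overexpression replicate 2. MiR-15b-3p from the other arm stood at 457, 685 and 468 CPM with MITF overexpression and at 503, 428 and 479 CPM in controls. Replicate 2 was thus the lowest library for the 5p arm and the highest for the 3p arm of miR-15b. The log2 fold change of the 3p arm was 0.19, with an interval from -0.36 to 0.74.

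MiR-15a-5p, the partner of miR-16 in Dleu2, was scarcer than miR-15b-5p in every library. It stood at 286, 200 and 234 CPM with MITF overexpression and at 160, 240 and 196 CPM in controls, which overlapped. Its log2 fold change was 0.27 with an interval from -0.41 to 0.95. MiR-497a-5p and miR-195a-5p, which restrain proliferation in other cell types, were the least abundant tested 5p rows. MiR-497a-5p stood at 192, 170 and 117 CPM with MITF overexpression and at 108, 162 and 122 CPM in controls. MiR-195a-5p stood at 110, 98.4 and 193 CPM with MITF overexpression and at 94.8, 169 and 102 CPM in controls. Their log2 fold changes were 0.29 ± 0.36 and 0.13 ± 0.42 (SE), and the direction of miR-195a-5p turned without MITF overexpression replicate 3, at -0.23, and without control replicate 1, at -0.04. The adjusted p was 0.592 for miR-15a-5p, 0.623 for miR-497a-5p and 0.870 for miR-195a-5p by edgeR, and no difference was detectable at this depth.

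**Figure D2:**
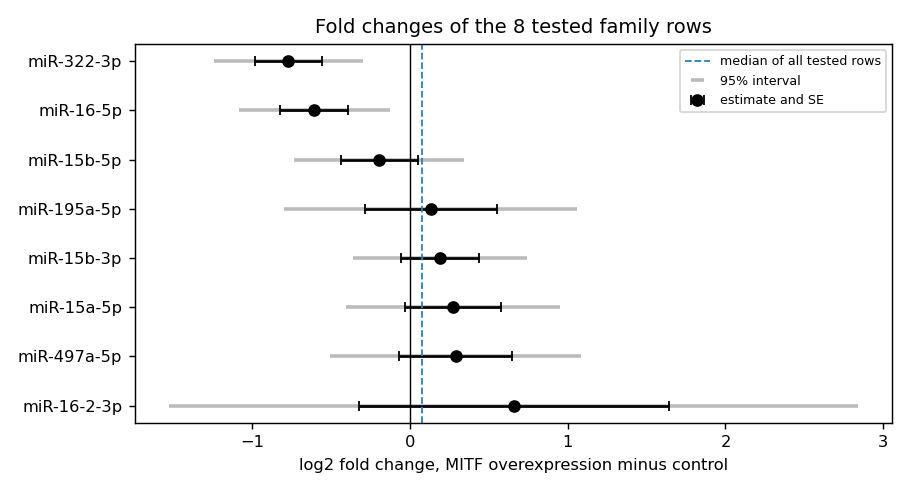
Log2 fold change, MITF overexpression minus control, of the 8 tested family rows, with the SE as black bars and the 95% interval as grey bars. The intervals of miR-322-3p, from -1.24 to -0.30, and of miR-16-5p, from -1.09 to -0.13, lie below 0, and the other 6 span it.

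The MITF overexpression libraries held 190, 128 and 163 reads of miR-322-3p and the controls 260, 291 and 305 reads. Its levels were 434, 434 and 477 CPM with MITF overexpression and 850, 759 and 689 CPM in controls. The groups did not overlap, and the MITF overexpression libraries lay close together, with a mean of 448 ± 24.4 CPM, while the controls averaged 766 ± 80.9 CPM (SD, n = 3 each). The log2 fold change was -0.77 ± 0.21 (SE), which is 1.71-fold lower, with an adjusted p of 0.0348 by edgeR. It is listed at a ratio of 0.600 and an unadjusted p of 0.0114 in the authors' deposited table. The call was lost on leaving out any 1 of the 6 libraries, with log2 fold changes from -0.82 to -0.69 and adjusted p from 0.0773 to 0.114. It was also lost with total-count scaling, at -0.60 and an adjusted p of 0.0815, and with no filter on low counts, at -0.82 and an adjusted p of 0.0947. Of 16 alternatives 7 kept the call, DESeq2 among them, and 9 lost it.

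MiR-322-5p, the arm that carries the family seed, was nearly unread. It had 21, 0 and 0 reads with MITF overexpression and 7, 0 and 6 reads in controls, too few to be tested, and 21 of its 34 reads came from MITF overexpression replicate 1. The 5p arm thus made up 9.95% of the miR-322 reads in that library, with a 95% Wilson interval from 6.60 to 14.7%, against 2.62% and 1.93% in the control replicates 1 and 3. In the libraries at 0, a count of 0 allows a share of up to 2.34% in MITF overexpression replicate 2, 1.84% in replicate 3 and 1.03% in control replicate 2. These intervals and limits cover counting error only. The fall of miR-322 given above is therefore a measurement of the 3p strand, which lacks the family seed.

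For the other members with both arms read, the 5p arm gave most reads. For miR-16, summed over both precursors, it made up 95.4%, 100% and 95.7% of arm reads with MITF overexpression. In controls it made up 97.9%, 98.0% and 99.0%. For miR-15b it made up 76.7%, 55.3% and 70.8% with MITF overexpression and 71.7%, 75.9% and 74.2% in controls. The log2 ratio of 5p to 3p reads, with 0.5 added to each, averaged 1.10 ± 0.72 with MITF overexpression and 1.5 ± 0.16 in controls for miR-15b (SD, n = 3 each). The 2 groups overlapped, with a two-sided exact permutation p of 0.6, where 0.1 is the smallest that 3 against 3 allows. For miR-16 the ratio averaged 6.27 ± 3.23 with MITF overexpression and 5.88 ± 0.60 in controls (SD, n = 3 each), with an exact permutation p of 1 and an adjusted p of 1 for both members. The miR-16 value rests on MITF overexpression replicate 2, which had 0 reads of the 3p arm. Without it the difference between groups was -1.47 in place of 0.39.

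**Figure D3:**
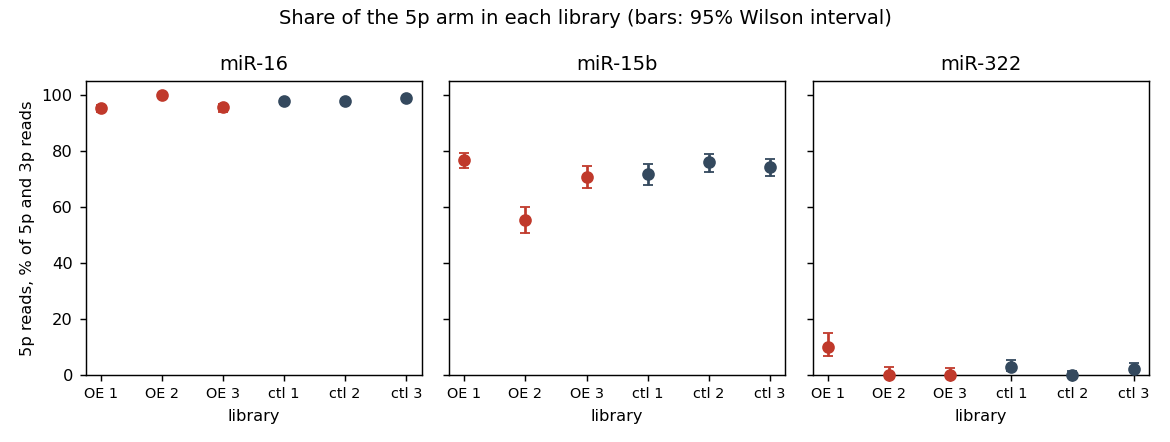
Reads of the 5p arm as a percent of the 5p and 3p reads of miR-16, miR-15b and miR-322 in each library, with 95% Wilson intervals, OE for MITF overexpression and ctl for control. The share lies above 95% for miR-16 and below 10% for miR-322, and the miR-15b share of OE 2, at 55.3%, lies below the other 5 libraries.

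The remaining rows were passenger arms at low counts. MiR-16-2-3p had 46, 0 and 33 reads with MITF overexpression and 10, 23 and 16 reads in controls. Its log2 fold change was 0.66 ± 0.98 (SE) by edgeR, and the sign turned to -0.47 with limma on the authors' normalized values. MiR-15a-3p, listed under a name that marks a substituted base, had 10, 5 and 0 reads with MITF overexpression and 0, 10 and 12 reads in controls. MiR-16-1-3p had 7, 0 and 0 reads with MITF overexpression and 12, 0 and 0 reads in controls. Neither was tested, and both held reads in both groups.

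The 6 mouse-named rows with the family seed summed to 4675, 3053 and 3808 CPM with MITF overexpression and to 4947, 4862 and 5339 CPM in controls. All MITF overexpression libraries lay below all controls, with means of 3845 ± 812 CPM with MITF overexpression and 5049 ± 255 CPM in controls (SD, n = 3 each). This separation did not hold with the 3 rows of other names that carry the seed added, where MITF overexpression libraries stood at 5312, 3122 and 3897 CPM and controls at 4978, 4928 and 5399 CPM. As a percent of unscaled tabulated reads the groups overlapped too, at 0.456%, 0.322% and 0.426% with MITF overexpression and 0.441%, 0.488% and 0.497% in controls. No test was made of this sum, since the members were chosen with earlier results known. Within the mouse-named rows, miR-16-5p took 54.2%, 56.9% and 55.9% of seed reads with MITF overexpression and 66.4%, 60.6% and 66.1% in controls. MiR-15b-5p took 32.2%, 27.8% and 29.8% with MITF overexpression and 25.8%, 27.7% and 25.8% in controls. These 2 held most of the mouse-named seed reads in every library. Over all 11 rows the family made up 0.556%, 0.442% and 0.542% of tabulated reads with MITF overexpression and 0.568%, 0.615% and 0.611% in controls. Rows whose names mark an added, missing or substituted base held 45.9 ± 2.03% of family reads with MITF overexpression and 36.0 ± 2.34% in controls (SD, n = 3 each). MiR-16-5p is listed without such a mark and the other tested 5p members with one, and miR-322-3p is also listed without one. No arm of a precursor is listed both ways, so this share cannot show a change in the ends of any arm.

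**Figure D4:**
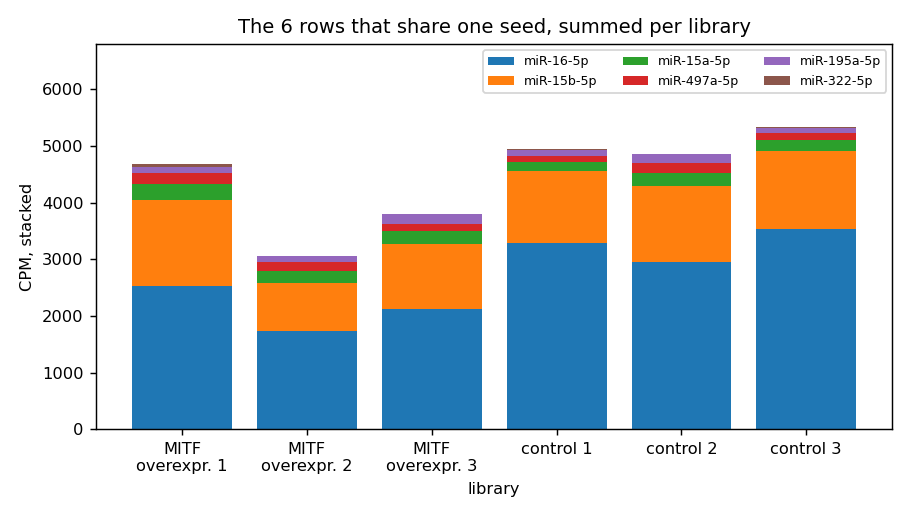
Stacked levels in CPM of the 6 mouse-named rows that share the family seed, per library, with MITF overexpression left and control right. The stacks reach 3053 to 4675 CPM with MITF overexpression and 4862 to 5339 CPM in controls, and miR-16-5p is the largest part of each.

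MiR-322 is the first of a run of microRNAs on the X chromosome that continues with miR-503, miR-351, miR-542, miR-450a and miR-450b. The neighbours lie 220 to 6204 bases downstream. MiR-503-5p is shown because its seed is close to that of the family.
miR-503-5p: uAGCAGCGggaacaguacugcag
All 9 listed rows of these neighbours were tested, and 0 were called higher or lower by edgeR, while 2 had an unadjusted p under 0.05 with a lower level, beside 13.4% of all tested rows. No neighbour was called under the alternatives read out for these rows, DESeq2 included. The fit with end variants summed was not read out for them. Their median log2 fold change was -0.36, beside 0.08 over all tested rows and -0.07 over the mouse-named ones. Of the 9 rows, 2 share 1 sequence, and the median is the value of that sequence.

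The values differed along the run. MiR-450b-5p stood at 149, 193 and 158 CPM with MITF overexpression and at 373, 266 and 251 CPM in controls, without overlap, with a log2 fold change of -0.83 ± 0.30 (SE), and edgeR's adjusted p was 0.0835. MiR-542-3p stood at 302, 180 and 187 CPM with MITF overexpression and at 543, 287 and 350 CPM in controls, with -0.81 ± 0.34 (SE) and an adjusted p of 0.119, and with -0.54 without control replicate 1. MiR-450a-5p, whose reads come from 2 precursors, stood at 421, 327 and 425 CPM with MITF overexpression and at 695, 597 and 444 CPM in controls. Its groups did not overlap, its log2 fold change was -0.56 ± 0.26 (SE), and edgeR's adjusted p was 0.151. These log2 fold changes lie near that of miR-322-3p, and their tests did not pass.

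MiR-351, from the middle of the run, did not share that direction in its values. Its 5p arm stood at 962, 1564 and 1152 CPM with MITF overexpression and at 1164, 941 and 854 CPM in controls, with a log2 fold change of 0.31 and a 95% interval from -0.23 to 0.86. Its 3p arm had a log2 fold change of 0.18. The single sequence shared by the rows of miR-450b-3p and the miR-450a-1-3p variant had a log2 fold change of -0.36 ± 0.39 (SE). The intervals of miR-503-5p and miR-503-3p were wide, from -1.06 to 1.48 and from -1.23 to 0.94. Whether neighbours differ from each other was not tested.

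**Figure D5:**
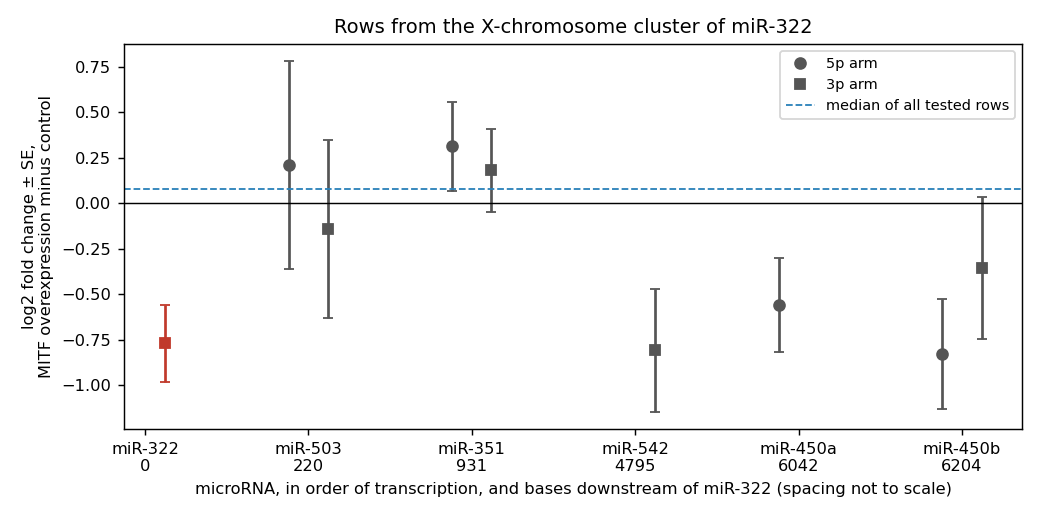
Log2 fold change with its SE, MITF overexpression minus control, of miR-322-3p (red) and its X-chromosome neighbours (grey), in order of transcription, with circles for 5p and squares for 3p arms. MiR-322-3p, miR-542-3p, miR-450a-5p and miR-450b-5p lie between -0.83 and -0.56, and both arms of miR-351 lie above 0.

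MiR-103 and miR-107, which have the same letters as the family seed starting 1 base earlier, were read beside it. MiR-103-3p stood at 1466, 1317 and 1492 CPM with MITF overexpression and at 3313, 1772 and 1772 CPM in controls, without overlap, and its log2 fold change was -0.68 (edgeR, adjusted p = 0.107). Without control replicate 1, its highest library, the value was -0.35, and edgeR gave an adjusted p of 0.379. MiR-107-3p stood at 732, 724 and 447 CPM with MITF overexpression and at 740, 541 and 498 CPM in controls, with a log2 fold change of 0.10. A row of miR-103-2-5p held reads in 1 library of each group and was not tested. The deposited sequence of miR-107-3p is 21 bases long and matches the start of miR-103-3p too, so reads of these 2 can be shared.

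In its profile over the 6 libraries, miR-16-5p was nearest to miR-27a-3p, miR-128-3p and miR-26b-5p. Their centred log2 CPM differed from its own by a root mean square of 0.133, 0.134 and 0.138, where the median over 277 mouse-named rows was 0.508. MiR-27a-3p, the nearest, stood at 6069, 3674 and 5498 CPM with MITF overexpression and at 8126, 8478 and 8466 CPM in controls, and edgeR's adjusted p for it was 0.0568. MiR-128-3p and miR-26b-5p both had log2 fold changes of -0.48. None of the 3 was called, and their direction follows from the choice by likeness to miR-16-5p over the same libraries.

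Of the 9 rows of any name with the family seed, 3 are named after other mammals, and they are named here after their values were seen. A row named after guinea pig miR-16a had 225.5, 15.5 and 26.5 reads with MITF overexpression and 9.5, 25.5 and 26.5 reads in controls. The 48 reads of a row named after goat miR-16a all came from MITF overexpression replicate 1, and the other 5 libraries held 0. The third, named after cow miR-424-5p, had 14 reads in all. The rows named after miR-16a match miR-16-5p over its first 20 bases and carry C21A against it, counted from the 5′ end. MITF overexpression replicate 1, which held most of these reads, is also the library highest in liver miR-122. With these rows added to miR-16-5p, an alternative chosen after seeing the data, its log2 fold change was -0.47 with an adjusted p of 0.208 by edgeR, against -0.61 and 0.0770 without them.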

How the data were processed

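Per the labels' protocols, a TruSeq small RNA kit was used for library construction. The authors deposited estimated counts of reads per row, which need not be whole because reads can be split among rows, and, per the file headers, normalized values, a signal found, when checked, to be the estimated count over 1 scaling factor for each library. The authors also deposited a fold change as the ratio of group means and an unadjusted p-value per row, and a table of the count of reads per class, per the file headers. The build was mm9, per the submitters' processing notes. Neither the aligner nor the counter is named in these sources. A read split among rows makes near-identical sequences uncertain. The 4 emptied lines of the table were left out.

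Estimated counts were rounded and fitted with edgeR 4.0.16 in R 4.3.3 on all 6 libraries (group only, TMM scaling, filterByExpr at a minimum count of 10, quasi-likelihood test), with Benjamini-Hochberg adjustment over the 441 tested rows and a threshold of 0.05. The SE was the log2 fold change over the root of the F statistic. CPM used unrounded counts on TMM-scaled totals. The same step was tested on simulated data. DESeq2 1.42.0 and limma 3.58.1 were alternatives. Profiles used log2 CPM with a prior count of 2. Limits for a count of 0 used 3 reads. Sequences came from RefSeq and gene context from GENCODE M21, both on GRCm38. Replicate numbers are shared between groups, but deviations of same-numbered libraries correlated at -0.0477, 0.0418 and -0.0145, so they were not treated as pairs.

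All rows of the 6 members are named, with the X-chromosome neighbours, microRNAs of the same or an overlapping seed, and the 3 nearest mouse-named profiles. Of the lists, miR-195b, miR-497b, miR-1907, miR-6342, miR-6353 and miR-6419 had no mouse-named row in the deposited table, so no values are given for them. The members and lists were chosen with earlier results of these data known.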

Additional observations from a re-analysis of the deposited data

Results flagged for a closer look

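A row named after cow miR-424-5p lay outside the test for low reads, and it drew attention because it was above 0 in every MITF overexpression library and at 0 in every control. It had 5, 5 and 4 reads with MITF overexpression, 14 in all, and 0 in each control. These are 11.4, 17.0 and 11.7 CPM, where 3 reads, the limit that a count of 0 allows, would be 9.81, 7.82 and 6.77 CPM in controls. The row shares its first 20 bases with miR-322-5p and carries G21A against it, counted from the 5′ end. Among 1119 untested rows 27 showed this pattern and 4 the opposite one, while the number of all rows above 0 was 992, 860 and 783 in the MITF overexpression libraries and 513, 612 and 677 in the controls.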

How the results depend on the processing

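The count of called family rows was 1, and it was 0 with total-count scaling, with no filter on low counts and with the replicate block, 2 by DESeq2 and 2 when mouse-named rows alone were fitted, where miR-16-5p was the second. Without 1 library it was 0 to 0 in the 6 fits. The count over all rows was 67, against 110 by DESeq2, 2 with the replicate block, and 0 to 56 without 1 library. It was lowest, at 0, without MITF overexpression replicate 3, where 135 rows had an unadjusted p under 0.05, and was 14 without MITF overexpression replicate 2 and 11 without control replicate 2. Total-count scaling gave 62 higher and 15 lower rows against 44 and 23, and raised the median log2 fold change of all rows by 0.16. The block is no paired test here, since the numbers are not shown to pair libraries, and with it miR-322-3p had a log2 fold change of -0.77 and an adjusted p of 0.0928. Signs turned for miR-15b-5p (-0.45 to 0.031 without 1 library, positive without MITF overexpression replicate 2), miR-16-2-3p (-0.47 by limma on log2 of the normalized values plus 1), miR-195a-5p (-0.23 to 0.49 without 1 library, and -0.04 without control replicate 1) and the miR-16 arm ratio, whose difference ran from -1.47 to 1.34 without 1 library. The log2 ratio of the summed family level was -0.37, and -0.49 to -0.21 over its alternatives, among them -0.31 with the seed rows of other names added, chosen after seeing the data. The other 5 tested rows kept their sign in all alternatives run. The cause of each change was not tested. Depth limits the 3 untested rows, miR-322-5p among them, which held reads in only some libraries.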
